A study of Mus musculus with 53 samples.

Results

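The 7 genes described here are 6 S100 genes (S100a1, S100a4, S100a6, S100a10, S100a11 and S100a13) and Lgals1, which encodes galectin-1. They were taken by name and all 7 were found among the 11647 genes of the bulk RNA table and among the 23235 genes of the single-cell table. They had been chosen by their bulk FPKM differences, several being higher in cells with less Tbx3, so those differences are given as a description and test nothing. The single-cell values and the Tbx3 sites played no part in that choice.

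The cells were R1 mouse embryonic stem cells grown with serum and LIF and without feeders. Bulk RNA came from N/N cells, called Tbx3 null by the labels, from +/N cells, called heterozygous, from +/+ wild-type cells, and from wild-type cells carrying shTbx3, a hairpin to Tbx3, or shLuc, a hairpin to luciferase. Each of the 5 groups had 1 library, so no spread between replicates could be computed and no p-value is given. Tbx3 sites came from N/N cells that expressed the biotin ligase BirA and a Flag- and biotin-tagged Tbx3 (bfTbx3), with BirA-only cells as the control. Another 45 single cells and 1 pool were wild-type R1 cells sorted as SSEA1+DAPI-. Whether a line came from 1 clone, what drives the hairpins and which part of Tbx3 was targeted are not given in the sources used here.

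S100 proteins are small calcium-binding proteins that work mostly as dimers: calcium opens a groove with which they bind partners such as annexins, myosin and other cytoskeletal proteins. S100A10 is the exception, since its calcium-binding loops are inactive and it stays in the open form, bound to annexin A2 at membranes. Galectin-1 is a small lectin that binds galactose-containing sugar chains on cell-surface and matrix glycoproteins and is also found in the cytosol. Several of these genes are abundant in mesenchymal and contractile cells.

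In the GENCODE annotation of mm9, the build of the deposited sites, the S100 genes lay on chromosome 3 and Lgals1 on chromosome 15. S100a1 (90314956 to 90318314, minus strand) and S100a13 (90318357 to 90328503, plus strand) ran away from each other, with starts 43 bases apart. Of 22367 coding genes 591 (2.64%) had such a divergent coding start within 100 bases. S100a4 (90407692 to 90409967) and S100a6 (90416816 to 90418336) followed on the plus strand, with 9.12 kb between their starts. S100a11 (93324410 to 93330209) and S100a10 (93359002 to 93368565), both on the plus strand, lay 2908 kb farther on and 34.6 kb apart. Lgals1 spanned 78757155 to 78760895 on the plus strand. All 7 were compact genes, with coding lengths of 267 to 303 bases for the S100 genes and 405 bases for Lgals1.

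The sequences around starts of 5 of the S100 genes are shown because S100a1 and S100a13 share theirs and because the other 3 differed in which known promoter elements they held. They were read from mm9 on the plus strand, the direction of transcription for every gene shown but S100a1. The first covers chr3:90318285-90318386, from 30 bases inside S100a1 to 30 bases inside S100a13. The others run from 220 bases before the start to 30 bases after it (chr3:90407472-90407721, chr3:93358782-93359031 and chr3:93324190-93324439). Capitals mark matches on either strand to GGGCGG (the GC box), TATAAA (the TATA box), TGANTCA (the AP-1 element) and GGTGTGA (the T-box core).
S100a1/S100a13: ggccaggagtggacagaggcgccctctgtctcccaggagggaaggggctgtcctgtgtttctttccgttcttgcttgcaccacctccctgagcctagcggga
S100a4: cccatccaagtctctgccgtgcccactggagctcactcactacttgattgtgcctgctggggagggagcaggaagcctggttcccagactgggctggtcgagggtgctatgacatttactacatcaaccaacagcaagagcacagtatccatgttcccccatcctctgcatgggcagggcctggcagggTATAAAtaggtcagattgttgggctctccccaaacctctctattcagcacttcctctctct
S100a10: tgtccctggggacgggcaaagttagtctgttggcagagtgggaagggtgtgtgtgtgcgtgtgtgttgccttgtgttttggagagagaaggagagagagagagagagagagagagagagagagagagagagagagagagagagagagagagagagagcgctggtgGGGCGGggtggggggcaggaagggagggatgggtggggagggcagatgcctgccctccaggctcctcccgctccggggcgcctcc
S100a11: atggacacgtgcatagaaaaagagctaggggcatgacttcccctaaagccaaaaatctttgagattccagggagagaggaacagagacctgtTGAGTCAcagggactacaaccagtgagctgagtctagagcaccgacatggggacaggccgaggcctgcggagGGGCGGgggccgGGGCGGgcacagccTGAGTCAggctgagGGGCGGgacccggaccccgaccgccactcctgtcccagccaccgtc

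S100a4 had TATAAA beginning 31 bases before its start. S100a11 had 3 GC boxes, beginning 56, 44 and 16 bases before its start, and 2 copies of TGAGTCA, beginning 128 and 30 bases before it. S100a10 had 1 GC box, beginning 55 bases before its start. The shared S100a1 and S100a13 stretch had none of the 4.

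Over windows of 300 bases (250 before the start and 50 after it), GGGCGG was found in 43.4% of 22362 coding promoters and in 2 of the 6 S100 genes, S100a10 and S100a11. TATAAA was found in 13.4% and in 1, S100a4, and TGANTCA in 6.93% and in 1, S100a11. The sequence GATTGG, an element bound by NF-Y, was found in 17.2% and in S100a6 alone of the 6. The T-box core was found in 3.81% of promoters and in 1 of the 6, S100a13, where it began 164 bases before the start, inside an exon of S100a1 and outside the stretch printed. The ratio of observed to expected CpG was lowest in the S100a4 window (0.0871, below all but 9.36% of promoters) and 0.329 to 0.530 in the other 5, against a median of 0.534 over all coding promoters. These matches describe letters in a window and not binding.

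Tbx3 sites were then placed against the starts. None of the 7 genes had 1 of the 3078 deposited sites within 20 kb of its start, where 9.60% of coding genes had one. None had a site within 50 kb either, where 18.4% of coding genes had one. The nearest site to S100a1 and S100a13 was 714 kb away (chr3:89604026-89604408, deposited score 50.2), and the same site was nearest to S100a4 (803 kb) and S100a6 (812 kb). The nearest to S100a10 and S100a11 was 1461 and 1495 kb away (chr3:94819623-94820573, score 161). The nearest to Lgals1 was 401 kb away (chr15:79158590-79159003, score 55.8). The 3.04 Mb from the S100a1 start to the S100a10 start held 0 of the 168 sites on chromosome 3. With neighbours sharing a nearest site, the 6 S100 genes are not 6 separate observations. The scores are the authors' and ran from 50.01 to 791 over all sites.

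Bulk levels are in FPKM, which divides fragments by transcript length and by all mapped fragments, so levels of different genes can be compared within a library. Tbx3, read first as a check of the labels, stood at 15.1 FPKM in N/N, 22.5 in +/N and 44.4 in +/+, and at 5.09 in shTbx3 and 13.8 in shLuc. The embryonic stem cell markers listed (Pou5f1, Nanog, Sox2 and 5 more) were all in the table, with a summed level of 2060 to 2215 FPKM in the allele libraries and 3473 to 3562 FPKM in the hairpin libraries. Allele and hairpin libraries differed in make-up: the share of all FPKM in small RNA genes was 19.6% to 22.7% in the first and 5.43% to 7.24% in the second. Levels are therefore compared only within a set. Read numbers per library are not given in the sources used here, and the depth is unknown.

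S100a10, S100a6 and Lgals1 were the abundant members and together made up 80.9% of the summed level of the 7 genes in N/N, 83.8% in +/N and 89.3% in +/+, and 87.3% in shTbx3 and 86.5% in shLuc. Each of them stood above 88.0% to 98.8% of all genes, depending on the library. S100a11, S100a13, S100a1 and S100a4 were lower, and S100a4 was the least abundant in N/N, +/+, shTbx3 and shLuc. All 7 were above 1 FPKM in all 5 libraries. The summed level of the 7 was 409 FPKM in N/N, 374 in +/N and 277 in +/+, and 787 in shTbx3 and 304 in shLuc.

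**Figure D1:**
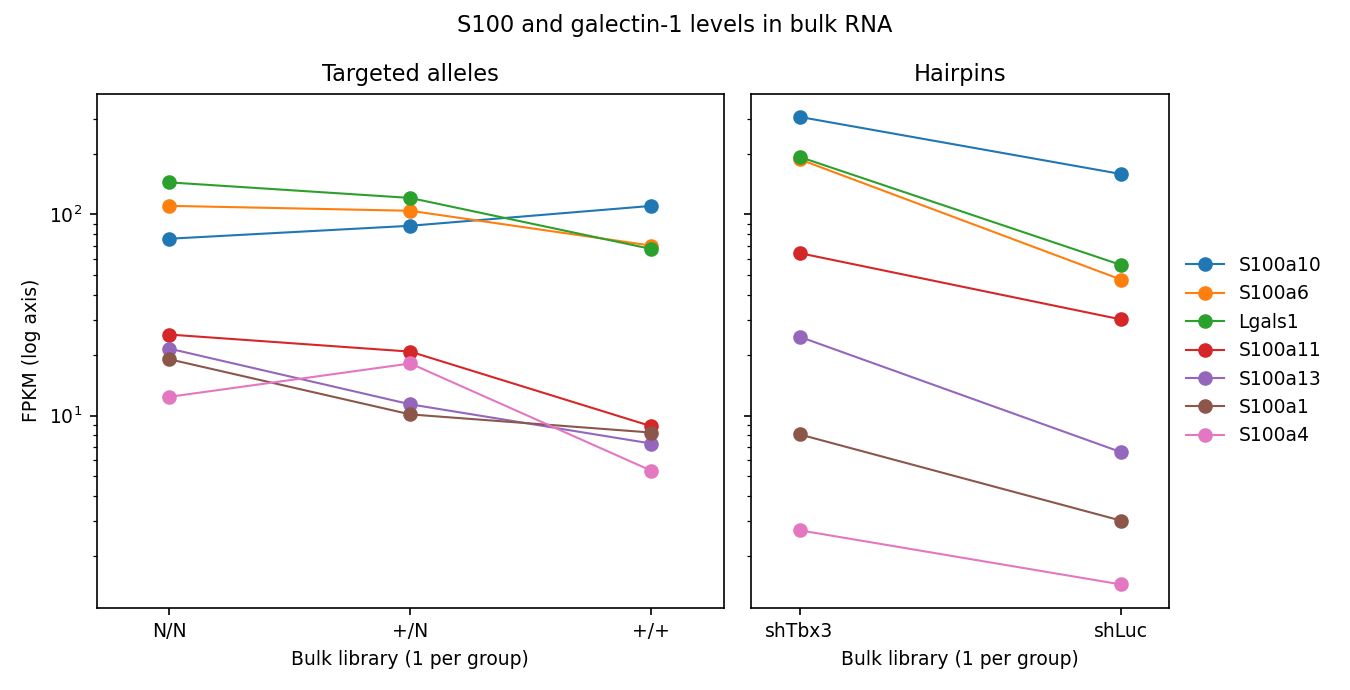
FPKM on a log axis of the 7 genes in the 3 allele libraries (left) and the 2 hairpin libraries (right); each point is 1 library and lines join the points of a gene. In the allele set S100a10 was lowest in N/N (75.8 FPKM) and highest in +/+ (110.3 FPKM), whereas each of the 7 genes was higher in shTbx3 than in shLuc.

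Lgals1, the lectin of the set, stood at 144 FPKM in N/N, 121 FPKM in +/N and 67.4 FPKM in +/+. With the hairpins, it was at 193 FPKM in shTbx3 and 56.1 FPKM in shLuc. Both targeted-allele libraries were above +/+, and shTbx3 was above shLuc. On the scale of log2(FPKM + 1) the differences were 1.09 for N/N against +/+, 0.83 for +/N against +/+, 0.26 for N/N against +/N and 1.77 for shTbx3 against shLuc, the last a 3.40-fold difference.

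S100a6 (calcyclin), which binds annexins and the ubiquitin-ligase adaptor encoded by Cacybp, stood at 110.4 FPKM in N/N, 104 FPKM in +/N and 70.002 FPKM in +/+. It was 188 FPKM in shTbx3 and 47.5 FPKM in shLuc. The hairpin difference, a log2 of 1.96, was the largest of the 7 genes in that pair, while N/N against +/+ gave 0.65, short of 2-fold. N/N and +/N lay 0.08 apart, a value that became -0.01 with the median of well-expressed genes set to 0 and -0.06 with libraries scaled without small RNA genes.

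S100a10, the annexin A2 partner, ran the other way in the allele set. It stood at 75.8 FPKM in N/N, 87.9 FPKM in +/N and 110.3 FPKM in +/+, whereas it was 306 FPKM in shTbx3 and 159 FPKM in shLuc. The log2 differences were -0.54 for N/N against +/+, -0.33 for +/N against +/+ and 0.94 for shTbx3 against shLuc. None of them reached 2-fold. Anxa2, which encodes annexin A2, stood at 199.6 FPKM in N/N, 165 FPKM in +/N and 99.1 FPKM in +/+. It was 63.8 FPKM in shTbx3 and 57.3 FPKM in shLuc. The genes of the 2 partners thus lay in opposite order across the allele libraries, and in the hairpin pair the log2 difference of Anxa2 was 0.15 beside 0.94 for S100a10.

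S100a11 (calgizzarin), which binds annexins A1 and A2, stood at 25.3 FPKM in N/N, 20.8 FPKM in +/N and 8.85 FPKM in +/+. It was 64.3 FPKM in shTbx3 and 30.1 FPKM in shLuc. Its log2 differences were 1.42 for N/N against +/+, 1.15 for +/N against +/+, 0.27 for N/N against +/N and 1.07 for the hairpin pair, which became 0.91 with the median of well-expressed genes set to 0. S100a10, 34.6 kb downstream of it, was 2.99 times its level in N/N, 4.23 times in +/N and 12.5 times in +/+, but 4.76 times in shTbx3 and 5.29 times in shLuc.

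The S100a11 values carry a limit that the others do not. Of the 486 windows of 26 bases in its transcript, 417 (85.8%) occur elsewhere in the mm9 genome as exact copies, and so do 206 of 412 windows of 100 bases (50%). Bulk libraries were read at 26 or 100 bases, and the sources used here do not give the length of each. Copies with 20 or more of the windows of 26 bases lie in 5 places, of which 2 are annotated as pseudogenes. Of these pseudogenes, Gm12854 (350 windows) lies where Uqcrh, a coding gene of the bulk table, is also annotated. Other copies lie at Gm7665 (325 windows) and Gm5068 (95 windows), which are annotated as coding genes. How the authors' tools divided such reads is not given either, so the S100a11 level is uncertain. For the other 6 genes at most 2.27% of windows of 26 bases and 0 windows of 100 bases occur elsewhere.

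S100a13, which takes part in the release of proteins without a signal sequence such as Fgf1, stood at 21.5 FPKM in N/N, 11.4 FPKM in +/N and 7.26 FPKM in +/+. It was 24.7 FPKM in shTbx3 and 6.58 FPKM in shLuc. S100a1, best known as a regulator of calcium handling in muscle, stood at 19.1 FPKM in N/N, 10.1 FPKM in +/N and 8.24 FPKM in +/+, and at 8.06 FPKM in shTbx3 and 3.004 FPKM in shLuc. In both genes N/N was the highest of the allele libraries and +/+ the lowest.

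The log2 differences of S100a13 and S100a1 were 1.45 and 1.12 for N/N against +/+, 0.58 and 0.27 for +/N against +/+, and 1.76 and 1.18 for shTbx3 against shLuc. For N/N against +/N, a comparison without the +/+ library, they were 0.86 and 0.85, the largest positive values of the 7 genes. The ratio of S100a13 to S100a1 was 1.13 in N/N, 1.12 in +/N and 0.882 in +/+, and 3.06 in shTbx3 and 2.19 in shLuc. The 2 genes with adjoining starts were thus at similar levels in the allele libraries, whereas S100a13 was the higher in both hairpin libraries.

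S100a4, which binds non-muscle myosin and is used as a fibroblast marker, stood at 12.4 FPKM in N/N, 18.2 FPKM in +/N and 5.32 FPKM in +/+. It was 2.69 FPKM in shTbx3 and 1.45 FPKM in shLuc. It was the 1 gene of the 7 with its highest allele-set level in +/N. Its log2 differences were 1.08 for N/N against +/+, 1.60 for +/N against +/+, -0.52 for N/N against +/N and 0.59 for the hairpin pair. Its neighbour S100a6 was 8.91 times its level in N/N, 5.74 times in +/N and 13.2 times in +/+, and 69.9 times in shTbx3 and 32.8 times in shLuc.

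Counted together, 5 of the 7 genes were at least 2-fold higher in N/N than in +/+ (all but S100a6 and S100a10) and 0 were lower, where 1.37% of the 11478 genes tested were higher and 1.92% lower. In +/N against +/+ the count was 2 (S100a4 and S100a11) higher and 0 lower, with 0.698% of 11459 genes higher (80) and 1.21% lower (139), or 106 and 118 genes with the median of well-expressed genes set to 0. In N/N against +/N it was 0 in either direction, with 0.317% of 11362 genes higher and 0.308% lower. In shTbx3 against shLuc it was 5 higher (all but S100a4 and S100a10) and 0 lower, with 2.81% of 11342 genes higher (319) and 0.987% lower (112), or 219 and 171 with that median set to 0 and 191 and 166 with libraries scaled without small RNA genes. S100a1, S100a11, S100a13 and Lgals1 were at least 2-fold higher both in N/N against +/+ and in shTbx3 against shLuc, and S100a4, S100a6 and S100a10 were not. The genes were chosen with these differences known, so the counts are a description. In the hairpin pair the count of 5 was 4 with the median of well-expressed genes set to 0 (S100a11 at 0.91) and 3 with libraries scaled without small RNA genes (S100a1 at 0.98 and S100a11 at 0.86). N/N against +/+ and +/N against +/+ share the +/+ library, so whatever set that library apart counts in both.

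The median log2 difference of the 7 genes was 1.09 in N/N against +/+, 0.58 in +/N against +/+, 0.26 in N/N against +/N and 1.18 in shTbx3 against shLuc. Over all genes tested it was -0.03, -0.10, 0.07 and 0.14 in the same order. Over the well-expressed genes, those with 5 FPKM or more on both sides, the median was shifted by -0.12 in +/N against +/+ and by 0.16 in the hairpin pair, and values are to be read against it. Nearest to the 2-fold line in N/N against +/+ were S100a4 inside it (1.08) and S100a6 outside it (0.65). In +/N against +/+ these were S100a11 (1.15) and Lgals1 (0.83), and in the hairpin pair S100a11 (1.07) and S100a10 (0.94). The closest in N/N against +/N was S100a13 (0.86), outside it.

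**Figure D2:**
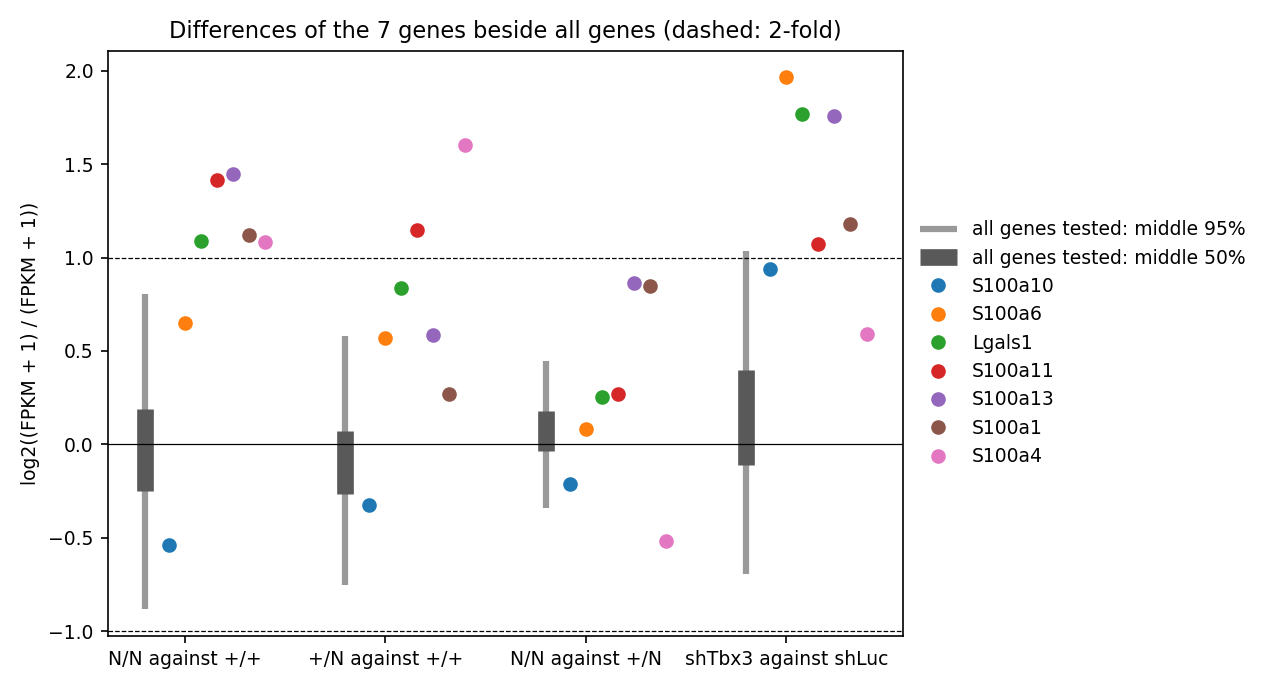
log2((FPKM + 1)/(FPKM + 1)) of the 7 genes (coloured points) in 4 comparisons, beside the middle 50% and middle 95% of all genes tested (dark and light grey bars); dashed lines mark 2-fold with 1 library on either side of a comparison. S100a10 is the 1 gene below 0 in N/N against +/+ (-0.54) and lies at 0.94 in shTbx3 against shLuc.

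Markers of other cell types moved in the same libraries. In bulk RNA a larger share of cells of a type and more RNA per cell cannot be told apart. The 7 fibroblast markers of 10 that are in the table summed to 102 FPKM in N/N, 99.4 in +/N and 56.5 in +/+, and to 19.7 in shTbx3 and 14.9 in shLuc. Col1a1, a fibrillar collagen, was 34.3 FPKM in N/N, 30.5 in +/N and 14.7 in +/+, but 4.38 in shTbx3 and 0.205 in shLuc, and Postn was 0.0164 FPKM in shTbx3 and listed at 0 in shLuc. Col3a1, Dcn and Lum were not in the table. In N/N against +/+ 5 of the 7 were higher and 2 lower (Thy1, 10.0 against 11.1 FPKM, and Pdgfra, 0.756 against 1.12). In +/N against +/+ all 7 were higher. In the hairpin pair 3 of the 4 past the 1 FPKM filter were higher and 1 lower (Thy1, 2.85 FPKM in shTbx3 against 5.81 in shLuc). The 5 measured streak and mesoderm markers of 9 summed to 77.2 FPKM in shTbx3 and 2.74 in shLuc, and lay between 4.72 and 5.52 FPKM in the allele libraries. The 5 measured trophectoderm markers of 8 summed to 343 FPKM in shTbx3 and 45.1 in shLuc, and to 70.4 in N/N, 50.3 in +/N and 51.3 in +/+. Most of the shTbx3 sum came from Krt8 (167 FPKM against 10.3 in shLuc) and Krt18 (140 against 13.4). Hand1, which is also in the streak list, was 6.24 against 0.414, Tfap2c 26.1 against 17.5 and Ascl2 3.56 against 3.47. Cdx2, Gata3 and Elf5 were not in the table.

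The 7 measured endoderm markers of 11 summed to 7.36 FPKM in N/N, 12.7 in +/N and 46.0 in +/+, and to 16.8 in shTbx3 and 13.5 in shLuc. The 4 measured immune markers of 6 summed to 6.08 FPKM in shTbx3 and 75.6 in shLuc, and lay between 7.26 and 8.75 FPKM in the allele libraries, with Ptprc and Lyz2 not in the table. The part of these cell types in the differences of the S100 genes and Lgals1 was not tested.

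Genes that work with the 7 were read from lists. Here and below, 2-fold was called after 1 FPKM was added to both sides, for genes at 1 FPKM or more on at least 1 side. Annexins, the calcium-dependent membrane proteins that several S100 dimers bind, had 9 of 12 genes in the table. Of these, 2 were at least 2-fold higher in N/N against +/+ (Anxa1, 11.6 against 4.85 FPKM, and Anxa2) and 0 lower, with a median log2 of 0.53. In +/N against +/+ 1 was higher (Anxa1, 12.3 against 4.85 FPKM) and 0 lower, with a median of 0.42. In N/N against +/N 0 were apart, with a median of 0.11. In the hairpin pair 1 was higher (Anxa3, 16.5 FPKM in shTbx3 against 1.56 in shLuc) and 0 lower, with a median of 0.14, beside 0.14 for all genes tested.

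Of 13 further S100 partners and receptors 8 were in the table, and the receptor genes Ager and Tlr4 were not among them. Of the 8, 0 were 2-fold apart in N/N against +/+, +/N against +/+ or N/N against +/N, with medians of 0.07, -0.06 and 0.14. In the hairpin pair 2 were higher (median 0.35): Myh9, the heavy chain of non-muscle myosin that S100A4 binds, at 108 FPKM in shTbx3 against 51.04 in shLuc, and Ahnak, a scaffold bound by S100A10 with annexin A2, at 17.3 against 6.78. Fgf1, whose product S100A13 helps to export, was 0.646 FPKM in N/N, 1.06 in +/N and 1.81 in +/+, and 0.894 in shTbx3 and 1.44 in shLuc. At these low levels the added 1 FPKM kept it short of 2-fold in N/N against +/+ (log2 -0.77).

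Glycoproteins known as galectin-1 ligands had 6 of 9 genes in the table. Lgals3bp, a secreted galectin-binding protein, was the 1 gene 2-fold apart, lower in N/N (4.30 FPKM) and in +/N (3.94 FPKM) than in +/+ (16.2 FPKM). Its level was 0.331 FPKM in shTbx3 and 0.503 in shLuc. Fn1, which encodes fibronectin, was 155 FPKM in N/N, 154 in +/N and 116 in +/+, and 139.7 in shTbx3 and 75.8 in shLuc. The medians of the list were 0.19 in N/N against +/+, 0.05 in +/N against +/+, 0.15 in N/N against +/N and -0.08 in the hairpin pair, where 5 genes passed the 1 FPKM filter.

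Of the 16 actin and contractile genes, all in the table, 2 were at least 2-fold higher in N/N against +/+ (Acta2 and Tagln) and 0 lower, with a median of 0.39. In +/N against +/+ the same 2 genes were higher and 0 lower (median 0.10), and in N/N against +/N 0 were apart (median 0.21). In the hairpin pair 10 were higher and 0 lower, with a median of 1.24. Tpm1, a tropomyosin, was 312 FPKM in shTbx3 against 72.9 in shLuc, Tagln 106 against 13.7 and Vim, an intermediate filament of mesenchymal cells, 126 against 44.9. Tpm1 was 77.1 FPKM in N/N, 52.9 in +/N and 54.1 in +/+.

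Other members of both families were read beside the 7. Of 11 further S100 genes 2 were in the bulk table. S100a16, a neighbour of S100a13, stood at 4.43 FPKM in N/N, 3.90 in +/N and 2.26 in +/+, and at 5.12 in shTbx3 and 3.59 in shLuc. Its log2 difference was 0.74 in N/N against +/+, 0.59 in +/N against +/+ and 0.41 in the hairpin pair. S100g was 0.0671 FPKM in N/N, 0.365 in +/N and 1.02 in +/+, and 0.0901 in shTbx3 and 0.835 in shLuc. With 1 FPKM added to both sides, neither was called 2-fold apart in any comparison. For S100g this rests on the added 1 FPKM, with a log2 difference of -0.92 in N/N against +/+. In N/N against +/N and in the hairpin pair S100g was below 1 FPKM on both sides and could not be called.

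Of 10 further galectin genes 7 were in the table, with a median log2 of -0.38 in N/N against +/+, -0.47 in +/N against +/+, 0.01 in N/N against +/N and -0.01 in shTbx3 against shLuc. Lgals9 stood at 17.2 FPKM in N/N, 9.05 in +/N and 37.5 in +/+, and at 3.64 in shTbx3 and 3.62 in shLuc. It was at least 2-fold lower in N/N and in +/N than in +/+, as was Lgals2 (0.361 FPKM in N/N, listed at 0 in +/N and 2.18 FPKM in +/+). Lgals3 stood at 16.9 FPKM in N/N, 16.8 in +/N and 17.04 in +/+, and at 29.6 in shTbx3 and 24.0 in shLuc. None of these 7 was at least 2-fold higher in N/N against +/+ or in the hairpin pair. Lgals1 was higher in both, but it had been chosen with those differences known, so the contrast with its family tests nothing.

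Neighbours on the chromosome were read next. Within 100 kb of a start of the 7 lay the starts of 21 other coding genes, 13 of them in the bulk table. In N/N against +/+ 0 of the 13 were at least 2-fold higher and 1 lower (Lgals2), with a median log2 of -0.07, and in +/N against +/+ the counts were the same with a median of -0.15. In N/N against +/N 0 of the 12 past the filter were apart (median 0.10). In the hairpin pair 1 of 12 was higher (Cdc42ep1, 3.60 FPKM in shTbx3 against 0.980 in shLuc) and 0 lower, with a median of 0.40. On the S100a1 side of the divergent start, 2500003M10Rik, 4894 bases away, was 28.6 FPKM in N/N, 28.0 in +/N and 34.8 in +/+, and 47.6 in shTbx3 and 42.7 in shLuc. Beside Lgals1, Nol12, 8208 bases away, was 9.65 FPKM in N/N, 10.6 in +/N and 12.7 in +/+, and 18.1 in shTbx3 and 13.6 in shLuc.

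**Figure D3:**
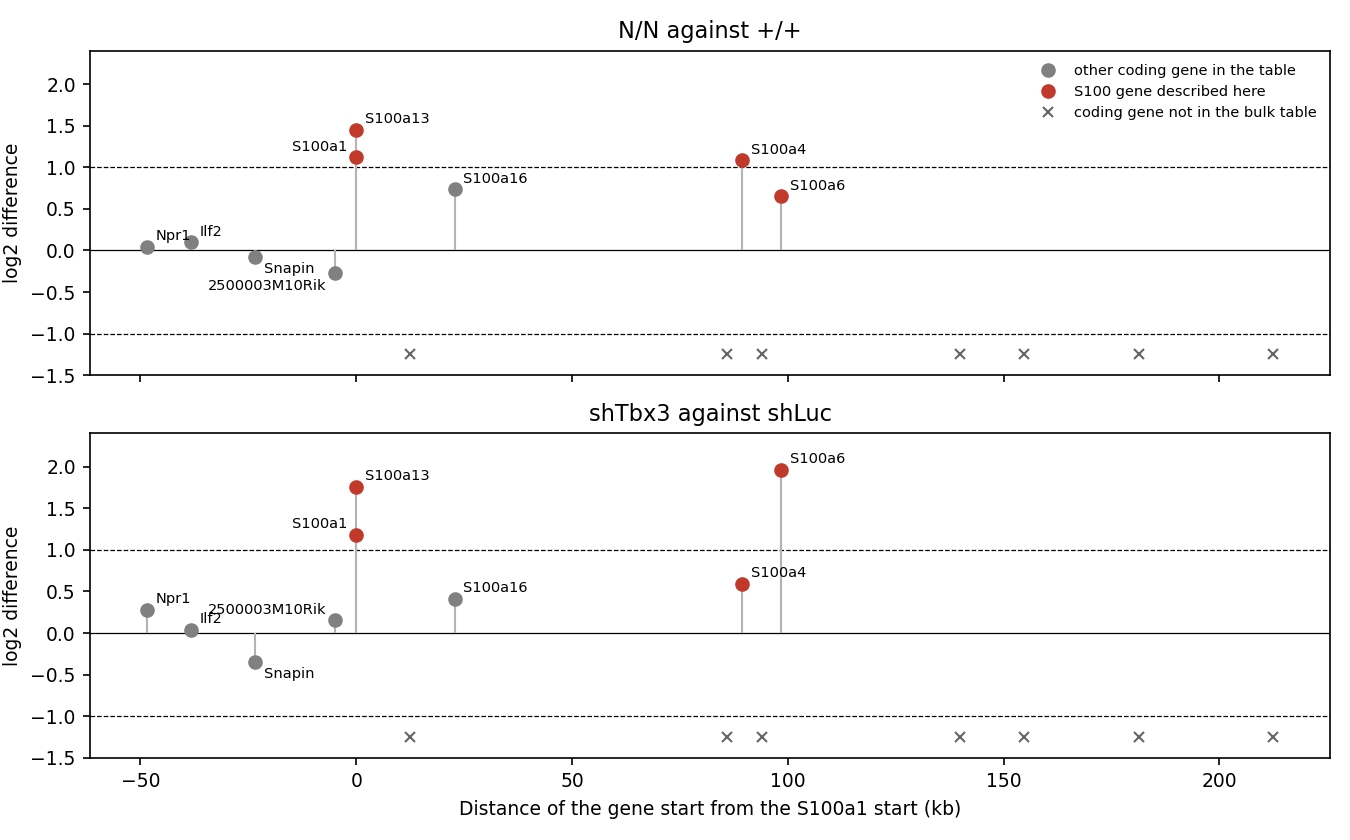
log2 difference of each coding gene around the S100a1 and S100a13 starts against its distance in kb from the S100a1 start, for N/N against +/+ (top) and shTbx3 against shLuc (bottom); red points are the 4 S100 genes described here that lie in this region, grey points other genes of the table, and crosses coding genes that are not in the bulk table. 2500003M10Rik, Snapin and Ilf2 stay between -0.35 and 0.15, Npr1 stands at 0.05 and 0.28 and S100a16 at 0.74 and 0.41. S100a13, chosen with its differences known, stands at 1.45 and 1.76.

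Levels were then read in the single cells. The 45 cells came from 1 sorted culture and count as 1 sample, and intervals cover counting error only. The order of the columns in the table falls into 23 cells and then 22, each in rising number, and the 2 sets did not overlap in genes detected above 0: 4279 to 5241 per cell in the first and 2139 to 3782 in the second. Shares are therefore given for both. A value of 0 in a cell says little even for abundant genes: Pou5f1, a defining stem cell gene at 1369.9 FPKM in the pool, reached 1 FPKM in 11 of the 45 cells, and Nanog, at 287 FPKM in the pool, in 12. The labels' protocol says that about 24 libraries were mixed for sequencing but ties no cell to a mix, and the split was noticed in the table.

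S100a10 was the most widespread of the 7. It reached 1 FPKM in 25 of the 45 cells (55.6%; the exact Clopper-Pearson interval at 95% was 40.0 to 70.4), in 17 of the first 23 and 8 of the last 22. Among those 25 cells its level ran from 1.14 to 883 FPKM with a median of 73.1 FPKM, and it was listed at 0 in 17 cells. S100a6 was at 1 FPKM or more in 12 cells (26.7%, interval 14.6 to 41.9), 8 of the first 23 and 4 of the last 22, with levels of 2.18 to 335 FPKM and a median of 113 FPKM. S100a11 was likewise in 12 cells, 9 and 3 of the 2 sets, at 13.8 to 341 FPKM with a median of 45.9 FPKM. Each of these 3 genes was found in a larger share of the cells in which more genes were detected.

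Lgals1 was at 1 FPKM or more in 7 cells (15.6%, interval 6.49 to 29.5), 4 of the first 23 and 3 of the last 22, at 7.67 to 310.3 FPKM with a median of 100.02 FPKM. S100a1 was in 2 cells, at 1.08 and 642 FPKM. S100a13 was in 1 cell, at 222 FPKM, and that cell was neither of the 2 with S100a1. S100a4 was listed at 0 in all 45 cells, which allows a share of up to 7.87% by the same exact interval. S100a1, S100a13 and S100a4, all low in bulk, were found in few cells or none, and for them the cells show no more than that. S100a11, also among the lower genes in bulk (8.85 FPKM in +/+), was in 12 cells.

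**Figure D4:**
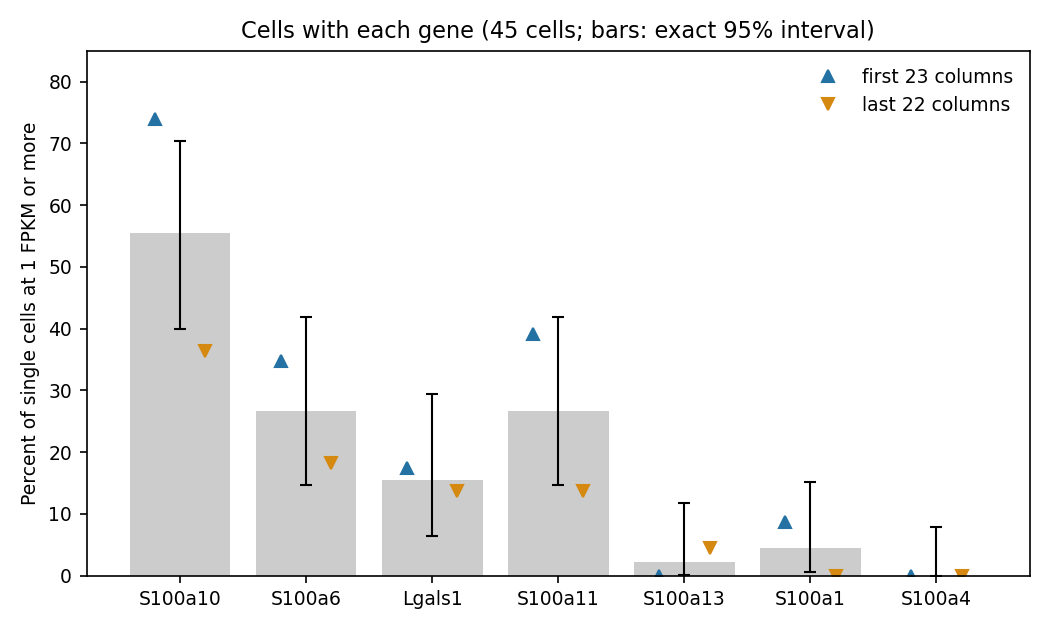
Percent of the 45 single cells at 1 FPKM or more for each gene (grey bars, with exact Clopper-Pearson 95% intervals), and the percent among the cells of the first 23 columns (blue, left) and the last 22 columns (orange, right). S100a10 stands at 55.6%, S100a6 and S100a11 at 26.7% and S100a4 at 0.

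The pool, processed with the cells and scaled with them, had the same leading gene. It held 253 FPKM of S100a10, 93.4 of S100a6, 65.0 of Lgals1, 46.6 of S100a11, 2.70 of S100a13, 0.863 of S100a4 and 0.613 of S100a1. The mean over the 45 cells, in the same order of genes, was 109.9, 33.8, 15.9, 24.2, 4.94, 0 and 14.3 FPKM. For S100a1 1 cell supplied 99.7% of that mean, and for S100a13 1 cell supplied all of it. S100a10 was also the most abundant of the 7 in +/+, shTbx3 and shLuc, whereas Lgals1 was the most abundant in N/N and +/N. Differences in rank between genes have no measured spread, as each bulk library and the pool stand alone.

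Members were found together in some cells and apart in others. Of the 45 cells, 12 had none of the 7 at 1 FPKM or more, 14 had 1, 14 had 2, 3 had 3 and 2 had 4. S100a10 was found in 10 of the 12 cells with S100a11 and in 9 of the 12 with S100a6, beside 25 of all 45 cells. Among the first 23 cells, 17 of which had S100a10, it was in 8 of 9 with S100a11 and 8 of 8 with S100a6. Among the last 22, 8 of which had it, these counts were 2 of 3 and 1 of 4. Of the 12 cells with S100a6, 4 had S100a11. Of the 7 cells with Lgals1, 2 had S100a10 and 3 had S100a11. At least 1 of the 7 genes was found in 19 of the first 23 cells and 14 of the last 22, and by cell number in 22 of the 25 cells numbered 49 to 87 and 11 of the 20 numbered 1 to 32. The median number of genes detected was 4335 in the cells numbered 49 to 87 and 3399 in those numbered 1 to 32. Within a set of columns the higher-numbered cells had the lower median. In the first set, 14 of 14 cells numbered 49 to 87 (median 4660 genes) and 5 of 9 numbered 1 to 32 (4718) had at least 1 of the 7. In the second set, these were 8 of 11 (2599) and 6 of 11 (2901). The part of detection in these shares was not tested.

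**Figure D5:**
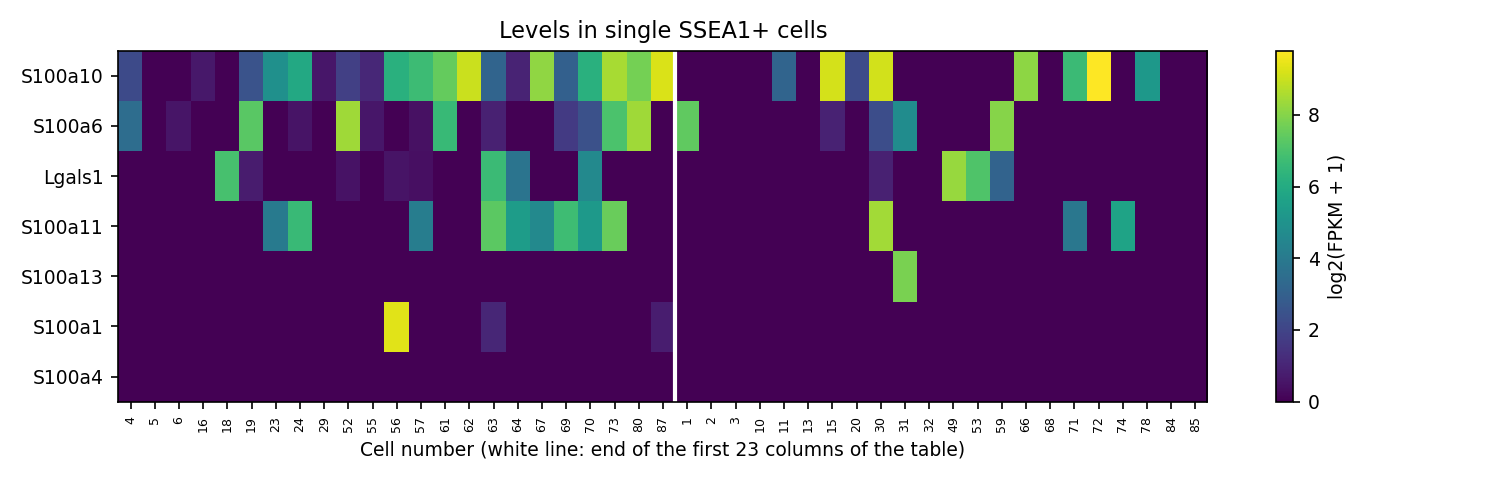
log2(FPKM + 1) of the 7 genes (rows) in each of the 45 cells (columns), the first 23 columns of the table left of the white line and the last 22 right of it, each by cell number. S100a10 is above 0 in 28 cells, and the cells with S100a13 (cell 31) and the highest S100a1 (cell 56) are different ones.

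Cells with Tbx3 and without it were counted. Of 13 cells with Tbx3 at 1 FPKM or more, 7 had S100a10, against 18 of the 32 cells without it. S100a6 was in 2 of 13 against 10 of 32, S100a11 in 2 of 13 against 10 of 32, and Lgals1 in 1 of 13 against 6 of 32. Of 10 cells with Dppa3, 5 had S100a10, against 20 of the 35 cells without it. S100a6 was in 2 of 10 against 10 of 35, S100a11 in 3 of 10 against 9 of 35, and Lgals1 in 1 of 10 against 6 of 35. These counts come from 1 culture, were not divided by the 2 sets of columns and are a description.

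The genes most like 3 of the members across the cells were read among the 3062 genes that reached 1 FPKM in 25% of cells or more. Spearman's rho over the 45 cells was used as the measure of likeness, and the cells share a culture, a preparation and a wide range of detection. For S100a10 the highest were Ppp1cb, a catalytic subunit of protein phosphatase 1 (rho 0.57), Shcbp1 (0.56) and Alkbh6 (0.55). For S100a6 they were Sec22b, which acts in vesicle fusion between endoplasmic reticulum and Golgi (0.58), Car2, a carbonic anhydrase (0.55), and Rpl10l (0.55). For S100a11 they were Tm7sf3 (0.55), Dync1li2, a light intermediate chain of dynein (0.54), and Gm6548 (0.50). Within the 3, rho was 0.35 between S100a10 and S100a11, 0.19 between S100a6 and S100a10 and 0.18 between S100a6 and S100a11. The rho of each with the number of genes detected per cell was 0.26 for S100a10, 0.28 for S100a6 and 0.25 for S100a11, beside medians of 0.05 to 0.07 over all scanned genes. They are the highest of many values in sparse data, and several differed widely between the 2 sets of columns: rho of Shcbp1 with S100a10 was 0.18 in the first 23 cells and 0.66 in the last 22.

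Marker and partner lists were read in the same cells and pool, whose values were scaled separately from the bulk libraries. The fibroblast list summed to 20.8 FPKM in the pool with 3 of 10 genes at 1 FPKM or more, and 8 of its genes were in no cell. Streak and mesoderm markers summed to 4.201 FPKM in the pool, and 7 of 9 were in no cell. All 8 embryonic stem cell markers were at 1 FPKM or more in the pool and in at least 11 cells each. Of partners, Anxa2 was in 8 of 45 cells and at 50.2 FPKM in the pool, Myh9 in all 45 cells and Cacybp in 41. Of the 11 further S100 genes, 0 were at 1 FPKM or more in any cell, and S100a16 was at 5.36 FPKM in the pool. Lgals3 was in 6 of 45 cells, beside 7 for Lgals1.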

How the data were processed

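RNA was measured in 5 bulk libraries and in 45 single cells with 1 pool, and Tbx3 sites in 1 ChIP sample. The authors deposited FPKM values, with TopHat, Cufflinks and Cuffdiff (bulk) or TopHat and Cuffnorm (cells) and mm9 named by the submitters' processing notes; the tables were scaled separately. Tbx3 sites carry a deposited score whose maker is not settled here: their names follow the MACS pattern, and the submitters' processing notes list Bowtie 1.0 and HOMER. The filter behind the bulk table's 11647 genes and the read depths are not given in the sources used here. FPKM ties every library to its own total, and reads shared by gene copies cannot be traced from the values.

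From these, log2((FPKM + 1)/(FPKM + 1)) was computed for genes reaching 1 FPKM on at least 1 side, with 2-fold as the call. The pseudocount understates folds of genes near 1 FPKM. Single cells were counted at 1 FPKM. Positions and sequences came from NCBIM37 (mm9) with GENCODE vM1. Promoter letters are given for the S100 genes; those of Lgals1 are not reported here. Read windows were matched exactly on both strands of the whole genome. Calculations used Python 3.11.15, pandas 2.3.3 and scipy 1.17.1 and were tested on simulated data. The genes and lists were chosen with earlier results of these data known. Genes named beyond the 7 are list genes, up to 3 of the largest differences per list and comparison, those within 100 kb, and the 3 most alike in cells; some that this rule gives are not named, and Fgf1, Fn1, Cacybp, Lgals3, S100g and Vim were named for their role or family. Alternatives changed the pseudocount, fold, filter, scaling, cell threshold, cell set, site window and site score.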

Additional observations from a re-analysis of the deposited data

Results flagged for a closer look

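S100a10 was lower in N/N than in +/+ (log2 -0.54; 75.8 against 110.3 FPKM) and higher in shTbx3 than in shLuc (log2 0.94; 306 against 159 FPKM), so the 2 ways of lowering Tbx3 went with opposite directions for this gene. Each direction rests on 1 library per side, and the difference between them was not tested. The other 6 genes had the same sign in both comparisons.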

How the results depend on the processing

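No paired analysis was possible because each bulk group has 1 library so the groups share fewer than 2 replicate numbers. Of 140 log2 differences read under other pseudocounts, fold thresholds and scalings, 124 kept their sign and their side of the fold threshold. Another 8 kept the sign but fell short of 2-fold, 6 passed 1.5-fold, and 2 changed sign, both for S100a6 in N/N against +/N. The 1.5-fold setting moved the threshold alone, so its log2 values were those reported and could not change sign or fall short. With a pseudocount of 5, 3 genes were at least 2-fold apart in N/N against +/+, 1 in +/N against +/+ and 3 in shTbx3 against shLuc. At 1.5-fold, 2 genes (S100a1 and S100a13) were apart in N/N against +/N. With libraries scaled without small RNA genes, 3 were apart in the hairpin pair, and S100a1 (0.98) and S100a11 (0.86) fell short. Over all genes, the higher and lower counts in N/N against +/+, +/N against +/+ and the hairpin pair were 157 and 220, 80 and 139, and 319 and 112 as reported. They were 262 and 358, 128 and 221, and 536 and 215 with a pseudocount of 0.1, 64 and 101, 39 and 80, and 109 and 28 with one of 5, and 625 and 743, 280 and 563, and 1443 and 423 at 1.5-fold. In N/N against +/N they were 36 and 35 as reported, 48 and 54 with a pseudocount of 0.1 and 111 and 91 at 1.5-fold. Cells with at least 1 of the 7 genes were 73.3% of all, 55% of those numbered 1 to 32 and 88% of those numbered 49 to 87. The cause of these shifts was not tested. No gene gained a Tbx3 site with a window of 50 kb, where 18.4% of coding genes had one. A window of 5 kb, or scores of 100 or more within 20 kb, could only give 0, since no gene had a site within 20 kb. Of coding genes, 4.37% and 3.09% had a site under these 2 settings. With 1 library per group and unknown depth, no bulk difference has an error.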
